A study of Homo sapiens with 9 samples.

Results

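The genes of Wnt signalling described here are the Wnt ligands, their Frizzled receptors, the LRP co-receptors, the secreted SFRP and DKK antagonists, and a short set of R-spondin receptors, feedback inhibitors and TCF/LEF factors. They were taken by gene symbol: any WNT, FZD, SFRP or DKK gene followed by a number and an optional letter, with LRP5, LRP6, AXIN2, LEF1, TCF7L2, LGR4, LGR5, RNF43 and ZNRF3. TCF7 also fell under the rule and was not analysed here. In all, 46 of the 18417 genes with a probe set of a single symbol met the rule, on 47 probe sets, and the probe set with the highest mean stood for DKK3, which has more than 1. They comprised 19 ligands, 10 Frizzled receptors, 8 antagonists, 3 feedback inhibitors, 2 co-receptors, 2 R-spondin receptors and 2 TCF/LEF factors.

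The samples were T47D cells, an established luminal breast cancer line with progesterone receptor, that carried the pHUSH retroviral vector, from which doxycycline switches on a short hairpin RNA against ELF5. ELF5 is an ETS transcription factor of the mammary alveolar lineage. The 3 groups were cells given 10 nM ORG2058, a synthetic progestin that the labels call progesterone, with 0.1 µg/ml doxycycline for 4 days, cells given 10 nM ORG2058 alone for 4 days, and cells given ethanol vehicle only, for a time not stated in the labels. Each group had 3 arrays, and each array took cells pooled from 3 wells. Every group carried the hairpin vector, and no group received doxycycline without progestin, so an effect of doxycycline itself and one of the hairpin cannot be told apart. The arrays measured RNA from whole cultures, in which fewer cells that express a gene and less RNA per cell cannot be told apart. The labels give no culture or array batch.

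Wnt proteins are secreted lipid-modified signals that bind Frizzled receptors on the cell surface. With the co-receptors LRP5 and LRP6 they stabilise β-catenin, which then acts with TCF/LEF factors on target genes, while other Wnt proteins act through planar polarity or calcium pathways. SFRP proteins bind the ligands themselves, and some DKK proteins, DKK1 among them, block LRP5 and LRP6. In the mouse mammary gland WNT4 is a known progesterone target, made by receptor-positive luminal cells and acting on their neighbours during side branching.

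The target of the hairpin, ELF5, averaged 10.42 ± 0.061 with progestin plus doxycycline, 11.28 ± 0.046 with progestin and 10.17 ± 0.11 with vehicle (log2 probe set level, mean ± SD, n = 3 arrays each). The 3 groups did not overlap in ELF5, and with doxycycline added it fell by 0.87 on the log2 scale (limma adjusted p = 0.029). The luminal keratins KRT8 and KRT18 lay between 12.94 and 13.20 on all 9 arrays, but 7 of the 12 luminal markers changed with progestin (58.3%, against 29.0% of all probe sets called). PGR, the progesterone receptor gene, was at 9.68, 9.62 and 9.60 with progestin, against 11.92, 11.92 and 11.89 with vehicle (log2 change -2.28, limma adjusted p = 2.96e-07). The luminal genes TFF1, GATA3, AGR2 and ESR1 also fell, by 0.84, 0.51, 0.51 and 0.50 on the log2 scale, and KRT19 and XBP1 rose by 0.46 and 0.23. Called with progestin were also 3 of 14 markers of immune, stromal or endothelial cells (21.4%, 2 higher and 1 lower) and 3 of 6 basal or myoepithelial markers (50.0%, 2 higher and 1 lower). The part of these marker changes in the results was not tested. The deposited table gives no detection call, so whether a gene was expressed at all was not determined, and levels of different probe sets serve only to pick the probe set or genes shown.

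Progestin against vehicle asked which Wnt genes follow the hormone. WNT4 and WNT5A rose more than 2-fold, the antagonist DKK1 and the receptor FZD7 fell at least 2-fold (4 genes, where 5.33% of all probe sets were called at that size), and co-receptor LRP5 and R-spondin receptor LGR4 fell by smaller amounts. Of the 46 genes 14 changed (30.4%), 7 higher and 7 lower, at an adjusted p of 0.05 from limma, a linear model fitted across 21214 probe sets. The background was 29.0% of all probe sets called in this comparison, so the share of Wnt genes called was near it. With all probe sets cut into 4 equal classes by mean level, 9.29%, 23.0%, 38.0% and 45.8% were called, from dimmest to brightest. The 29.0% was not matched for level, here or for the markers and further gene lists, and the part of level was not tested. The median log2 change was 0.04 over the 46 genes and 0.02 over all probe sets. Progestin and vehicle arrays did not overlap for 19 of the 46 genes (41.3%), against 42.3% of all probe sets. The split of calls was 5 higher and 9 lower after quantile normalization, and 15 higher and 8 lower with array weights, where 44.8% of all probe sets were called.

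**Figure D1:**
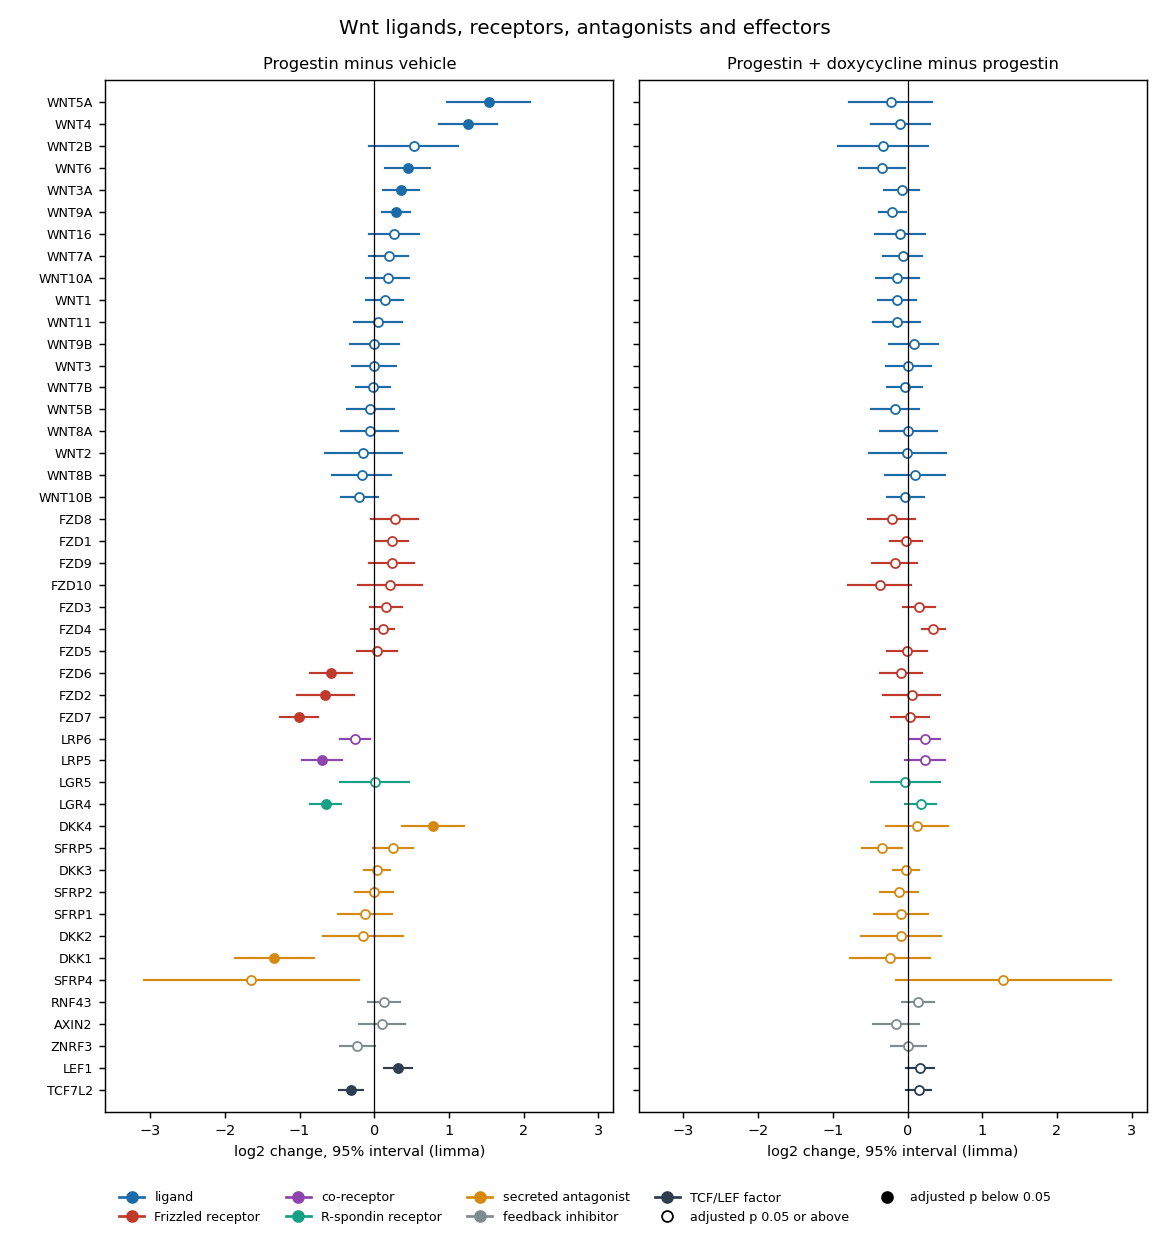
Log2 change of each of the 46 genes (points, with 95% intervals from limma) for progestin minus vehicle (left) and for progestin plus doxycycline minus progestin (right), grouped by role, where filled points have an adjusted p below 0.05. On the left 14 points are filled, from -1.34 for DKK1 to 1.53 for WNT5A, and on the right 0 are filled.

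Among the ligands, 5 of 19 rose and 0 fell. The share called, 26.3%, was near the 29.0% of all probe sets (13.4% higher, 15.6% lower). After quantile normalization 4 ligands rose, and with array weights, where 44.8% of all probe sets were called, 9 rose. None fell under either. WNT4 stood at 8.31, 8.26 and 8.51 on the progestin arrays, against 6.79, 7.02 and 7.51 on the vehicle arrays (log2 level). Every progestin array lay above every vehicle array, and vehicle replicate 3 was the nearest of the vehicle arrays. The change was 2.38-fold (log2 change 1.25, SE 0.17, 95% interval 0.86 to 1.64, limma adjusted p = 0.00081). With any 1 array left out it lay between 1.09 and 1.45, with an adjusted p of at most 0.00459.

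WNT5A, a ligand mostly known for signalling without β-catenin, was at 6.75, 6.55 and 6.88 with progestin, against 4.86, 5.80 and 4.92 with vehicle. The groups did not overlap, although vehicle replicate 2 stood well above the other vehicle arrays. WNT5A rose 2.89-fold, the largest ligand change (log2 change 1.53, SE 0.24, limma adjusted p = 0.00193). Its interval, 0.97 to 2.09, overlapped that of WNT4.

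WNT3A, WNT6 and WNT9A rose by less. WNT3A, a potent activator of β-catenin signalling, was at 7.39, 7.25 and 7.38 with progestin, against 6.88, 6.97 and 7.11 with vehicle (log2 change 0.36, SE 0.10, limma adjusted p = 0.0334). WNT6 was at 7.86, 8.16 and 8.24 with progestin, against 7.56, 7.49 and 7.86 with vehicle (log2 change 0.45, SE 0.13, limma adjusted p = 0.0355). In WNT6 the lowest progestin array and the highest vehicle array nearly touched. WNT9A was at 7.90, 7.89 and 7.86 with progestin, against 7.49, 7.70 and 7.58 with vehicle (log2 change 0.29, SE 0.08, limma adjusted p = 0.0271).

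These 3 calls lay near the threshold and were lost with some single arrays left out, unlike those of WNT4 and WNT5A. With any 1 array left out the log2 changes stayed positive, at 0.30 to 0.42 for WNT3A, 0.37 to 0.56 for WNT6 and 0.24 to 0.35 for WNT9A. WNT3A was not called without progestin plus doxycycline replicate 1, progestin replicate 1 or 3, or vehicle replicate 1 or 2 (adjusted p up to 0.115), and WNT6 not without any of 6 arrays: progestin plus doxycycline replicate 1 or 3, progestin replicate 2 or 3, vehicle replicate 1 or 2 (up to 0.116). The WNT6 call was also lost after quantile normalization and with only the compared groups fitted (up to 0.0742), and that of WNT9A under the replicate block (0.0688). WNT9A was not called without any single progestin array or without vehicle replicate 1 or 3 (up to 0.102). The number of ligands called was thus 2 without progestin replicate 3 or vehicle replicate 1, 3 without progestin plus doxycycline replicate 1, progestin replicate 1 or 2, or vehicle replicate 2, and 4 or 5 otherwise. Vehicle replicate 3 was the highest of its group for 14 of the 19 ligands and the lowest for 0, and 5 ligands were called without it. The 14 ligands that were not called had log2 changes between -0.20 (WNT10B) and 0.53 (WNT2B, adjusted p = 0.179).

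The 250 bases before the RefSeq transcription starts of the ligands and of the antagonist with the largest called changes are shown because these genes moved in opposite directions. Coordinates are of GRCh38.p14, each sequence runs 5′ to 3′ along the gene, and capitals mark motif matches.
WNT4, chr1:22143098-22143347, minus strand: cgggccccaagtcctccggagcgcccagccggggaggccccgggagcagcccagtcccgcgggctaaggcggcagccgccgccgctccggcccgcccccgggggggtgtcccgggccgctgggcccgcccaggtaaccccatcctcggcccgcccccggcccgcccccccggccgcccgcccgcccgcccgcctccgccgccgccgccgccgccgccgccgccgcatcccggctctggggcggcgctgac
WNT5A, upstream start, chr3:55487307-55487556, minus strand: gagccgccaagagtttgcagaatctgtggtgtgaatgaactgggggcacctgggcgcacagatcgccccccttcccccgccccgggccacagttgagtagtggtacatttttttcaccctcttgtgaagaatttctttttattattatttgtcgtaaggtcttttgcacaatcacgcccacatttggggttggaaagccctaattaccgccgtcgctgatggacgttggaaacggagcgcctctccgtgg
WNT5A, downstream start, chr3:55481399-55481648, minus strand: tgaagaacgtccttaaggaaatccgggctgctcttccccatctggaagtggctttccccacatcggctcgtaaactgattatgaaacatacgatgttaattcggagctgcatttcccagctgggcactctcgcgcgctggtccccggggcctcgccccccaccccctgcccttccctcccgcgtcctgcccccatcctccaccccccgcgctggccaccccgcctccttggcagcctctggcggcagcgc
DKK1, chr10:52314031-52314280, plus strand: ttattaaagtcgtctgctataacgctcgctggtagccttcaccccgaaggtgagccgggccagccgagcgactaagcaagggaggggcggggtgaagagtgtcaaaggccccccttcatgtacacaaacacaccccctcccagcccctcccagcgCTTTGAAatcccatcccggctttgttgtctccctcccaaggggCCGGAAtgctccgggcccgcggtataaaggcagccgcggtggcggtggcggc

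The WNT4 window had a GC content of 86.8% with 40 CpG dinucleotides, and 99.8% of all 35114 promoter windows had a lower GC content. The WNT5A windows were less GC-rich, 52.8% before the upstream and 64.4% before the downstream start, and DKK1 had 62.8%. Of the 46 genes 30 had a RefSeq promoter entry, with 36 windows in all. FZD2, FZD6, FZD7 and DKK4, all called with progestin, were among those without an entry and could not be searched. Both strands were searched for the steroid receptor half-site AGAACA, the palindrome of GNACA, any 3 bases and TGTNC, the TCF/LEF letters ATCAAAG or TTCAAAG and the ETS letters CCGGAA. None of the letters searched was in the WNT4 window or in either WNT5A window. DKK1 held CTTTGAA, the reverse complement of the TCF/LEF letters, 95 to 89 bases before its start, and CCGGAA 52 to 47 bases before it. The half-site occurred in 4 of the 36 Wnt gene windows (11.1%) and in 12.4% of all windows, the palindrome in 1 (2.78%) and in 0.328%, the TCF/LEF letters in 1 (2.78%) and in 5.94%, and the ETS letters in 1 (2.78%) and in 14.5%.

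Of the 10 Frizzled receptors 3 fell with progestin and 0 rose. The share called, 30.0%, was near the 29.0% of all probe sets (13.4% higher, 15.6% lower). With array weights, where 44.8% of all probe sets were called, 3 others (FZD1, FZD8 and FZD10) were called higher. FZD1 was also called higher with a variance trend and robust estimation (adjusted p = 0.0283). FZD7, a receptor linked to β-catenin signalling in breast cancer cells, was at 7.11, 6.80 and 7.03 with progestin, against 7.94, 8.13 and 7.90 with vehicle. The groups were clearly apart, and the fall was 2.01-fold (log2 change -1.01, SE 0.11, limma adjusted p = 0.000246). FZD6, a receptor of the planar polarity branch, was at 7.14, 6.94 and 7.13 with progestin, against 7.80, 7.76 and 7.38 with vehicle (log2 change -0.58, SE 0.12, limma adjusted p = 0.00884). FZD2, which binds WNT5A among others, was at 6.88, 6.80 and 6.51 with progestin, against 7.34, 7.35 and 7.48 with vehicle (log2 change -0.66, SE 0.16, limma adjusted p = 0.0183). The call of FZD2 was lost without progestin replicate 3 (adjusted p = 0.0561) or vehicle replicate 3 (adjusted p = 0.0535). The other 7 Frizzled genes had log2 changes between 0.04 and 0.27 and none passed the test. FZD1 was at 9.35, 9.30 and 9.24 with progestin, against 9.13, 8.88 and 9.17 with vehicle (adjusted p = 0.0925), and FZD9 at 9.30, 9.49 and 9.47 with progestin, against 9.24, 8.91 and 9.40 with vehicle (adjusted p = 0.227).

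The co-receptor LRP5 was at 7.56, 7.33 and 7.20 with progestin, against 8.13, 8.13 and 7.94 with vehicle. It fell 1.63-fold (log2 change -0.70, SE 0.12, limma adjusted p = 0.0024), and no array of one group reached the other. LRP6, its relative, was at 6.86, 6.90 and 7.00 with progestin, against 7.23, 7.07 and 7.24 with vehicle, which did not pass (log2 change -0.26, SE 0.086, limma adjusted p = 0.0558). LRP6 passed under 3 of 8 other settings, with its lowest adjusted p, 0.00512, under array weights, and also without vehicle replicate 2 (0.0497). LGR4, a receptor for R-spondins, which raise the cell's response to Wnt, was at 9.22, 8.92 and 9.07 with progestin, against 9.77, 9.73 and 9.66 with vehicle. It fell 1.57-fold with clear separation (log2 change -0.65, SE 0.090, limma adjusted p = 0.000938). LGR5, a stem cell marker of the gut and its own Wnt target, had a log2 change of 0.00 (95% interval -0.46 to 0.47).

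Among the antagonists the DKK genes went both ways and the SFRP genes had 0 calls. DKK1, which blocks LRP5 and LRP6 and is itself a known β-catenin target, was at 5.85, 6.11 and 6.31 with progestin, against 7.98, 7.14 and 7.15 with vehicle. Every progestin array was below every vehicle array, and vehicle replicate 1 stood highest. DKK1 fell 2.53-fold (log2 change -1.34, SE 0.23, limma adjusted p = 0.003), between -1.48 and -1.06 with any 1 array left out. DKK4, a related inhibitor, was at 6.53, 5.99 and 5.97 with progestin, against 5.20, 5.22 and 5.70 with vehicle, and rose 1.72-fold (log2 change 0.79, SE 0.18, limma adjusted p = 0.0124). DKK2 and DKK3 were at -0.15 and 0.04 (log2 change), and DKK3 spanned only 8.95 to 9.12 over all 9 arrays.

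SFRP4 had the lowest log2 change of all 46 genes, -1.65, but did not pass (SE 0.63, limma adjusted p = 0.0857). Its progestin arrays were at 3.38, 2.77 and 0.47, against 3.89, 3.84 and 3.83 on the vehicle arrays, so progestin replicate 3 set most of that difference. It was called lower after quantile normalization, with a variance trend and robust estimation, and once 16 was added on the linear scale. The same array had 97 values below 0 among the probe sets tested, where the others had 14 to 41. SFRP1 had a log2 change of -0.13 and SFRP2 an adjusted p of 0.994, and SFRP5 was at 9.02, 8.64 and 8.90 with progestin, against 8.45, 8.69 and 8.65 with vehicle (adjusted p = 0.145). SFRP5 was called higher with array weights (adjusted p = 0.00962) and without progestin replicate 2 (0.0435).

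None of the 3 feedback inhibitors passed the test. AXIN2, a general target of β-catenin that helps degrade it, was at 5.77, 5.76 and 5.78 with progestin, against 5.83, 5.42 and 5.75 with vehicle. Its log2 change of 0.10 had a 95% interval of -0.21 to 0.41. RNF43 and ZNRF3, ubiquitin ligases that remove Frizzled receptors from the membrane, had log2 changes of 0.13 (-0.08 to 0.35) and -0.23 (-0.46 to 0.01). The TCF/LEF factors parted. TCF7L2, the TCF factor of many epithelia, was at 7.18, 7.16 and 7.02 with progestin, against 7.42, 7.45 and 7.42 with vehicle, and fell by 0.31 on the log2 scale (SE 0.071, limma adjusted p = 0.0119). LEF1 was at 5.41, 5.51 and 5.57 with progestin, against 5.11, 5.17 and 5.26 with vehicle, and rose by 0.31 (SE 0.081, limma adjusted p = 0.0204). The LEF1 call was lost after quantile normalization (adjusted p = 0.158), with a variance trend and robust estimation (0.193), and without progestin replicate 2 or 3 or vehicle replicate 1 or 2 (up to 0.0796).

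**Figure D2:**
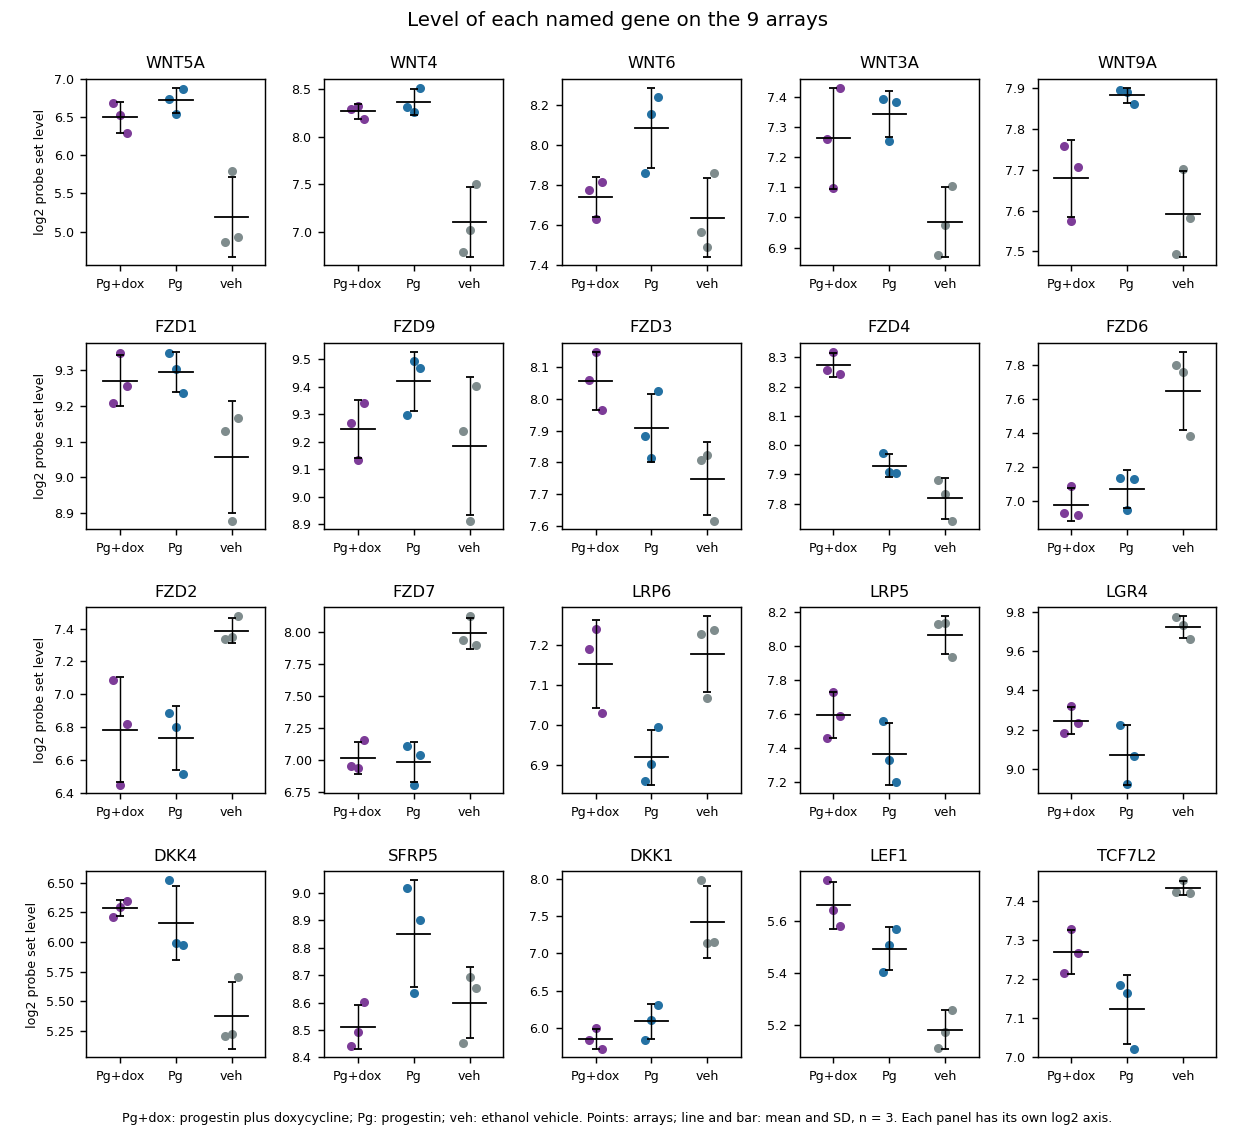
Log2 probe set level of the 20 named genes on each of the 9 arrays (points), with the group mean and SD (line and bar, n = 3), for progestin plus doxycycline, progestin and vehicle from left to right in each panel. WNT4 is at 8.18 or above on all 6 arrays with progestin and at 7.51 or below on vehicle, while FZD4 is set apart on the 3 arrays with doxycycline, at 8.24 to 8.32.

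Adding doxycycline to progestin asked whether induction of the ELF5 hairpin alters these genes. By limma 0 of the 46 genes passed the test, where the background was 0.0189% of all probe sets called. An unadjusted p under 0.05 was found for 5 of the 46 genes, against 14.0% of all probe sets, and the 2 groups did not overlap for 8 (17.4%), against 21.2% of all. WNT4 was at 8.29, 8.33 and 8.18 with progestin plus doxycycline, against 8.31, 8.26 and 8.51 with progestin. The arrays overlapped, and the log2 change of -0.09 had a 95% interval of -0.48 to 0.29. Intervals of the other large progestin responses were also wide: -0.78 to 0.33 for WNT5A, -0.76 to 0.30 for DKK1 and -0.22 to 0.29 for FZD7.

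FZD4, the receptor of Wnt proteins and of norrin in blood vessels of the eye, had the smallest p among the 46 genes in this comparison. It was at 8.26, 8.32 and 8.24 with progestin plus doxycycline, against 7.97, 7.91 and 7.90 with progestin alone. The groups were clearly apart with a log2 change of 0.34 (SE 0.067, unadjusted p = 0.000828), yet the limma adjusted p was 0.12. With a variance trend and robust estimation FZD4 was the 1 Wnt gene called (adjusted p = 0.0478), where 2.50% of all probe sets were called.

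The other genes with an unadjusted p under 0.05 whose arrays did not overlap were LRP6, SFRP5, WNT6 and WNT9A. LRP6 was at 7.19, 7.24 and 7.03 with doxycycline added, above all 3 progestin arrays (log2 change 0.23, SE 0.086, limma adjusted p = 0.297). SFRP5 was at 8.44, 8.49 and 8.60, below all 3 progestin arrays (log2 change -0.34, SE 0.115, limma adjusted p = 0.263). WNT6 was at 7.78, 7.63 and 7.81 and WNT9A at 7.76, 7.57 and 7.71, both also below (log2 changes -0.35 and -0.20, limma adjusted p = 0.309 and 0.324).

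Of the 19 ligands 15 had a negative log2 change with doxycycline, with a median of -0.09. Among all probe sets 43.9% were negative and the median was 0.03. After quantile normalization 14 of the 19 ligands and 52.1% of all probe sets were negative. In progestin against vehicle 12 ligands had a positive change. Both comparisons use the same progestin arrays, so their signs are not independent. Progestin plus doxycycline replicate 2 was the lowest of its group for 12 of the 19 ligands, and without it 11 of 19 were negative with a median of -0.03. With all probe sets cut into 4 equal classes by mean level, 3 and 10 ligands lay in the dimmest 2 classes, where 51.1% and 52.7% of probe sets were negative, and 5 and 1 in the brightest 2, where 38.6% and 33.1% were. The part of brightness in the ligands' sign was not tested.

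Progestin plus doxycycline against vehicle shares its vehicle arrays with the first comparison, so its values stand beside those rather than as separate evidence. In it 12 of the 46 genes were called (26.1%), 6 higher and 6 lower, against a background of 28.1% of all probe sets, 15.6% higher and 12.5% lower. Arrays did not overlap for 17 genes (37.0%), against 41.8% of all probe sets. WNT4 was 2.23-fold higher (log2 change 1.16, SE 0.17, limma adjusted p = 0.00119) and WNT5A 2.47-fold higher (1.31, SE 0.24, limma adjusted p = 0.00427). DKK4 was higher as well (0.91), and DKK1 (-1.57), FZD7 (-0.98), FZD6 (-0.67), FZD2 (-0.60), LGR4 (-0.48) and LRP5 (-0.47) were lower. FZD4 rose by 0.46 (SE 0.067, limma adjusted p = 0.00123), LEF1 by 0.48 (SE 0.081, adjusted p = 0.00253), and FZD3, a receptor of axon guidance, by 0.31 (adjusted p = 0.0386).

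FZD3 was at 8.06, 8.15 and 7.96 with progestin plus doxycycline and 7.88, 7.81 and 8.02 with progestin, against 7.81, 7.82 and 7.62 with vehicle. Leaving out 1 of 6 arrays ended this call (up to an adjusted p of 0.122): progestin plus doxycycline replicate 1 or 2, progestin replicate 1, or any single vehicle array. It was also lost under the replicate block (0.0832) and with only the compared groups fitted. FZD2 was not called without progestin plus doxycycline replicate 2 or 3 or any single vehicle array (up to 0.0768), nor LRP5 without progestin plus doxycycline replicate 1 or vehicle replicate 1 or 2 (up to 0.0606). WNT3A (0.28), WNT6 (0.10), WNT9A (0.09) and TCF7L2 (-0.16) had log2 changes that did not pass here (adjusted p = 0.086, 0.642, 0.494 and 0.135).

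The rest of the pathway was read from lists of 93 further Wnt genes, of which 90 were measured. With progestin 15 of the 90 rose and 12 fell (30.0% called, against the same background of 29.0%). WLS, which carries Wnt proteins to the cell surface, rose by 0.52 on the log2 scale (SE 0.12). Among 13 other receptors and co-receptors 1 rose and 3 fell (30.8% called). The heparan sulfate proteoglycan SDC1 rose by 0.34 (SE 0.10). The glypican GPC4 fell by 1.44 (SE 0.11), the adhesion receptor CD44 by 0.68 (SE 0.092) and the Wnt receptor RYK by 0.42 (SE 0.078). Of 12 other secreted modulators only the R-spondin RSPO2 passed (8.33% called, log2 change 0.55, SE 0.17, limma adjusted p = 0.0477).

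Inside the cell, 1 of 22 cytoplasmic transducers rose and 3 fell (18.2% called, against 29.0% of all probe sets). CSNK1A1, the kinase that primes β-catenin for degradation, rose by 0.64 (SE 0.070), while DVL2, which relays the Frizzled signal, fell by 0.56 (SE 0.070), CTNNB1, which encodes β-catenin, by 0.43 (SE 0.068), and the degradation scaffold AXIN1 by 0.38 (SE 0.087). Nuclear effectors were called in 7 of 13 cases, 3 higher and 4 lower (53.8%, against 29.0% of all probe sets). In the brightest 2 of the 4 classes by mean level, 38.0% and 45.8% of all probe sets were called. The part of level in the shares of these lists was not tested. The repressor TCF7L1 fell by 1.07 (SE 0.076). The co-repressor TLE1, the β-catenin partner BCL9L and the co-repressor CTBP2 rose by 0.98 (SE 0.072), 0.74 (SE 0.070) and 0.62 (SE 0.083). Relatives of TLE1 and CTBP2 went the other way. TLE3 was at 7.83, 8.08 and 8.14 with progestin, against 8.45, 8.48 and 8.39 with vehicle. CTBP1 was at 10.33, 10.33 and 10.40 with progestin, against 10.79, 10.83 and 10.65 with vehicle.

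Of 14 genes listed as Wnt targets in various tissues 5 rose and 1 fell (42.9% called, against 29.0% of all probe sets). SOX9, a transcription factor of progenitor cells, rose by 1.41 (SE 0.11), BAMBI, a decoy receptor of TGF-beta signalling, by 1.18 (SE 0.084) and ZNF703, a luminal transcription regulator, by 0.99 (SE 0.064). The cell cycle gene CCND1 fell by 0.75 (SE 0.069). In the planar polarity and calcium branch 3 of 15 genes rose and 1 fell (26.7% called, against the same 29.0%). The phospholipase PLCB4 was at 0.80 (SE 0.080), the cadherin CELSR3 at 0.43 (SE 0.11), the small GTPase RAC1 at 0.30 (SE 0.062) and the cadherin CELSR2 at -0.38 (SE 0.081). With doxycycline added 0 of the 90 passed by limma. An unadjusted p under 0.05 was found for 22 of the 90, a larger share than the 14.0% of all probe sets. The 2 groups did not overlap for 29 of the 90 (32.2%, 16 higher and 13 lower), against 21.2% of all probe sets. The cause of these larger shares was not tested. With the variance trend and robust estimation 3 of the 90 were called, where 2.50% of all probe sets were. They were GSK3B (log2 change 0.26), TNKS (0.39) and PLCB4 (0.34), all higher.

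**Figure D3:**
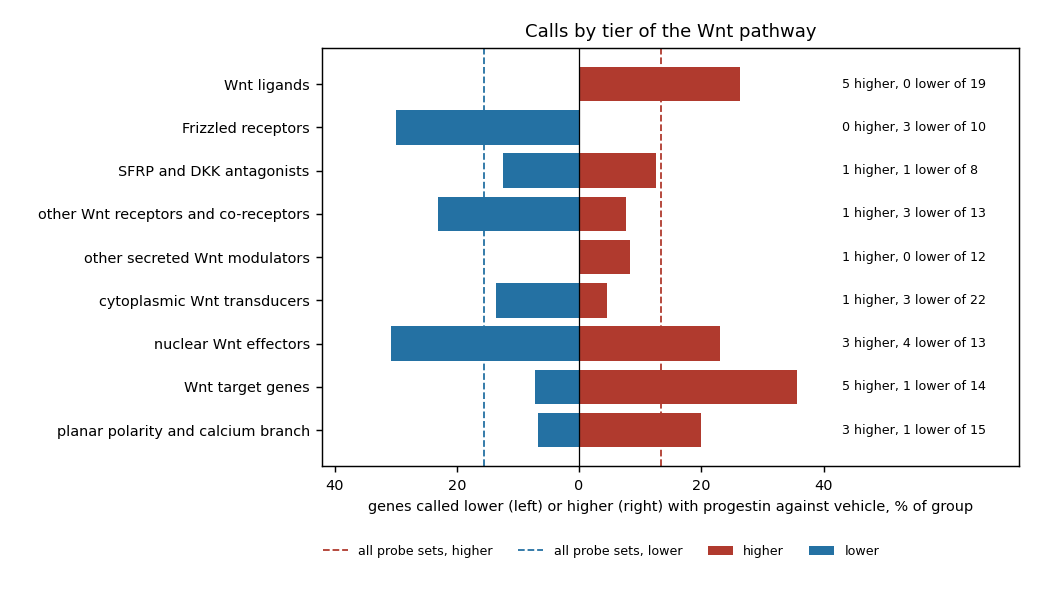
Share of the measured genes of each tier that were called higher (right) or lower (left) with progestin against vehicle, in percent of the tier, with dashed lines at the shares of all probe sets called higher (13.4%) and lower (15.6%). Calls among ligands lie on the higher side, 5 of 19, and calls among Frizzled receptors on the lower side, 3 of 10, to which array weights add 3 higher Frizzled calls and the variance trend 1.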

How the data were processed

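RNA from 9 samples was measured on Affymetrix human gene arrays, and the authors deposited log2 values, 1 for each probe set on each array. PLIER, limma, Affymetrix Expression Console and Affymetrix Power Tools are named in the submitters' processing notes. Their roles, the background correction and the normalization are not given in the sources used here. A log2 scale was inferred from the range of values. Array depth has no count here, and the number of arrays limits the precision.

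Of 33297 probe sets, the 21214 with at least 1 gene symbol in the platform annotation were tested. Genes were named from the 19460 with 1 symbol, 1754 having several. All 46 Wnt genes matched a RefSeq gene of GRCh38.p14 by identifier. Differences came from limma 3.58.1 in R 4.3.3: a mean for each group fitted to all 9 arrays together, eBayes moderation of the variances, Benjamini-Hochberg adjustment over all 21214 probe sets, and calls at an adjusted p of 0.05. SE and intervals are from this model. An exact permutation test of 3 arrays against 3 cannot give a p under 0.1. Nothing says that replicates are separate cultures, so p-values reflect spread among these samples, which may be technical.

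The members and gene lists were chosen with earlier results of these data known. Values per array are given for WNT4, for each member called in any comparison, for members with an unadjusted p under 0.05 and no overlap with doxycycline, and for the 3 members with the highest mean, while SFRP4 and AXIN2 were added after their values were seen. In each further list up to 4 called genes with the smallest p are named. TLE3 and CTBP1 were added after their values were seen, as relatives of named genes. Alternatives were quantile normalization, a filter on the dimmest 25% of probe sets, a variance trend with robust estimation, array weights, 16 added to the linear values, only the compared groups, the replicate number as a block, the mean of a gene's probe sets, and each array left out in turn.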

Additional observations from a re-analysis of the deposited data

How the results depend on the processing

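In progestin against vehicle, 9 of the 14 calls (WNT4, WNT5A, DKK1, DKK4, FZD6, FZD7, LGR4, LRP5 and TCF7L2) held under all 8 other settings and with each of the 9 arrays left out, and 5 were lost somewhere. With array weights 23 Wnt genes were called in that comparison, where 44.8% of all probe sets were, and 19 in progestin plus doxycycline against vehicle, where 41.4% were. Those weights ran from 0.318 for vehicle replicate 3 to 7.17 for vehicle replicate 1. With doxycycline added to progestin, the variance trend with robust estimation called 1 Wnt gene and 3 further pathway genes, where the other settings called 0 of both. With 1 array left out, between 10 and 15 Wnt genes and 23 to 32 further pathway genes were called with progestin (21.8% to 28.8% of all probe sets), 9 to 13 and 24 to 29 with progestin plus doxycycline against vehicle (22.7% to 27.8%), and 0 with doxycycline added (at most 0.00943%). The WNT4 change was then 1.09 to 1.45, 1.00 to 1.36 and -0.15 to -0.02 in these comparisons.

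The correlation of same-numbered arrays' deviations from their group means lay between -0.19 and 0.26 over 9 pairs. For differently numbered arrays it lay between -0.32 and 0.19. Vehicle against progestin plus doxycycline gave the highest values, 0.26 for replicate 2 and 0.24 for replicate 3. Deviations of 3 arrays from their own mean are tied to each other, so this does not settle whether the numbers pair the arrays. With the replicate block 12 Wnt genes were called with progestin, 11 with progestin plus doxycycline against vehicle and 0 with doxycycline added. Under this block LEF1 (adjusted p = 0.0529) and WNT9A (0.0688) were not called with progestin, nor FZD3 (0.0832) with progestin plus doxycycline against vehicle.

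Several changes near 0 turned sign, all without a call. With array weights DKK4 (-0.0316) and FZD7 (-0.0154) did so for added doxycycline and SFRP5 (0.00709) for progestin plus doxycycline against vehicle. With 1 array left out, the ranges that crossed 0 were -0.0639 to 0.00715 for FZD1, -0.0991 to 0.221 for FZD2, -0.057 to 0.096 for FZD7 and -0.164 to 0.00278 for WNT3A with added doxycycline, and -0.0794 to 0.0373 for LRP6 and -0.0739 to 0.171 for FZD9 against vehicle. The count of ligands with a negative change for added doxycycline, an added check chosen after seeing the data, was 11 to 18 of 19. Across those settings 39.9% to 52.1% of all probe sets were negative. The cause of these shifts was not tested.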

Other observations

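DKK3 had a second probe set, whose log2 level lay between 3.44 and 4.52 over the 9 arrays. Neither DKK3 probe set passed in any comparison, with log2 changes for progestin against vehicle of -0.10 (SE 0.28) for the second and 0.04 (SE 0.076) for the first. Over the 46 genes, vehicle replicate 3 was the highest vehicle array for 27 and vehicle replicate 2 the lowest for 22, while among all probe sets vehicle replicate 3 was the highest for 33.3% and vehicle replicate 2 the lowest for 32.2%.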
